A study of Mus musculus with 16 samples.

Results

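The 10 genes described here encode receptors of transforming growth factor β (TGFβ) and the SMAD proteins that carry its signal. They are the co-receptors Eng (endoglin) and Tgfbr3 (betaglycan), the type II receptor Tgfbr2, the type I receptors Tgfbr1 and Acvrl1, the receptor-regulated Smad2 and Smad3, the common partner Smad4, and the inhibitory Smad6 and Smad7. Each was represented by the probe set that maps to its symbol alone, and each of the 10 had 1 such probe set among the 19938 genes measured.

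TGFβ binds the type II receptor, a kinase that recruits and phosphorylates a type I receptor. The type I receptor phosphorylates SMAD2 and SMAD3, which enter the nucleus with SMAD4 and bind DNA, while SMAD6 and SMAD7 dampen the signal at the receptors. Betaglycan presents ligand to the type II receptor, and endoglin, best known from endothelium and also found on blood stem cells, modulates signalling through the type I receptors. In dendritic cell (DC) biology, TGFβ is known for its part in Langerhans cell development and for favouring conventional over plasmacytoid DCs (pDCs).

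RNA was measured on 16 Affymetrix Mouse Gene ST 1.0 arrays, 2 in each of 8 groups that cross genotype, starting cell and treatment. WT and IkL/L mice (homozygous for a hypomorphic allele of Ikzf1, which encodes the DNA-binding protein Ikaros) gave CD45.2+ bone marrow cells sorted as monocyte-dendritic progenitors (MDPs) or common dendritic progenitors (CDPs). The mice of the study were 6 to 9 weeks old. All 8 groups were cultured for 24 h with CD45.1+ WT bone marrow cells and Flt3L, the cytokine that drives DC development, together with either the γ-secretase inhibitor (GSI) Compound E at 5 µM, which blocks Notch activation, or its vehicle (DMSO). CD45.2+ cells were then sorted again for RNA, so MDP and CDP name the cells put into culture. A legend of the study gives 2 mice per condition, and no source says whether equal replicate numbers share a mouse or a day, so p-values measure the spread between these samples only.

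The values are log2 signals, in which a difference of 1 is a 2-fold difference, and levels of different genes are not compared because each probe set has its own response. Array medians lay between 4.52 and 4.65, and replicate arrays correlated at 0.983 to 0.996 over all genes. Ikzf1 itself gave 8.90 to 9.20 on the WT arrays and 8.36 to 8.94 on the IkL/L arrays, a difference of -0.40 averaged over stage and treatment (95% interval -0.55 to -0.25, limma adjusted p = 0.00666). Where its probes lie relative to the altered part of the allele was not examined, and the ranges overlap slightly. Of the progenitor markers, Csf1r gave 9.62 to 10.88 and Flt3 6.36 to 9.60, while the median gene had a mean of 4.75. Throughout, a gene is called where the Benjamini-Hochberg adjusted p over all 19938 genes is under 0.05 in 1 limma fit of the 8 group means, and each count of members is set beside the share of all genes called in that comparison.

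The promoters of Eng, the member that differed most between genotypes, and of Tgfbr2, which differed between starting cells, are shown because Ikaros and SMAD proteins act by binding DNA. Both are RefSeq sequences on GRCm38.p6, covering 250 bases before and 50 after the annotated start: Eng at chr2:32646345-32646644 on the plus strand and Tgfbr2 at chr9:116175314-116175613 on the minus strand. Tgfbr3, with the larger difference between starting cells (-0.71 against 0.23 for Tgfbr2), had no promoter entry in the source used. Capitals mark matches, on either strand, to GGGAA (the Ikaros core motif, TTCCC on the other strand) or CAGAC (the SMAD-binding element core, GTCTG on the other strand).
Eng: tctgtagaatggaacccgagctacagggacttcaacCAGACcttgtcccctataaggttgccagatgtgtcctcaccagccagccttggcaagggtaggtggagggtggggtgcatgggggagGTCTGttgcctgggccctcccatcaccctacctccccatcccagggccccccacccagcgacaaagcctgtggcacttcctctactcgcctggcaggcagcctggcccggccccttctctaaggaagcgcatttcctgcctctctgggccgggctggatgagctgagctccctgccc
Tgfbr2: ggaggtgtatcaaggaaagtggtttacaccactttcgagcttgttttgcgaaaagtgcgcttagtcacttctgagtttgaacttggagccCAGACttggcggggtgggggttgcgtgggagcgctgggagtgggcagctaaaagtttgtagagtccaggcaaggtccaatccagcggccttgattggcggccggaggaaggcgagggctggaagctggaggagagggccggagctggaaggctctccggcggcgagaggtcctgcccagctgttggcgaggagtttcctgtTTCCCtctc
The Eng window held CAGAC 2 times and no GGGAA. The Tgfbr2 window held 1 match to each. Among 32851 mouse promoters of 300 bases, 49.6% held CAGAC and 62.7% held GGGAA, so such matches are common. Matches are descriptions of these letters and say nothing of binding in these cells.

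Eng was the member in which IkL/L and WT cells differed most. In MDPs with DMSO it gave 6.55 and 6.78 on the WT arrays and 7.70 and 7.63 on the IkL/L arrays. In CDPs with DMSO it gave 6.16 and 6.68 in WT and 7.83 and 8.0 in IkL/L cells. In both starting cells every IkL/L array lay above every WT array. With GSI, the values in MDPs were 6.16 and 6.19 in WT and 7.79 and 7.21 in IkL/L cells. The CDP arrays with GSI gave 5.25 and 6.08 in WT and 7.42 and 7.51 in IkL/L cells. The groups were again apart, and the lowest IkL/L array (7.21) was above the highest WT array (6.78) over all 16.

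**Figure D1:**
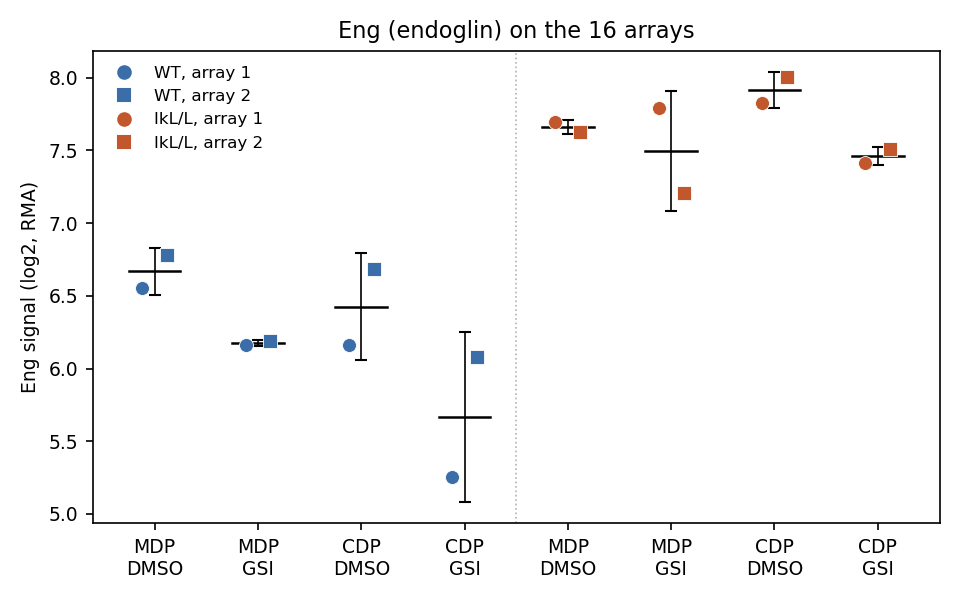
Eng signal (log2, RMA) on each array by group, with circles and squares for the 2 arrays of a group and black lines for the group mean ± SD (n = 2). All 8 IkL/L arrays (7.21 to 8.0) lie above all 8 WT arrays (5.25 to 6.78).

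Averaged over stage and treatment, Eng was 1.40 ± 0.13 (SE) higher in IkL/L cells on the log2 scale, with 8 arrays against 8, a fold of 2.64 (95% interval 2.15 to 3.23, limma adjusted p = 1.89e-04). In this comparison 1 of the 10 members was called, against 6.0% of all genes (1197). Before adjustment, 4 members and 18.1% of all genes had a p under 0.05. An exact permutation of genotype within each stage and treatment gave a two-sided p of 0.00154, the smallest that its arrangements allow. The study picked Eng out on these arrays, so neither test is independent evidence for it.

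Taken by starting cell, the Eng difference was called in CDPs. Before adjustment, 5 members and 9.38% of all genes had a p under 0.05 in CDPs with DMSO. With GSI these were 1 member and 10.5%. With DMSO, IkL/L CDPs were 1.49 above WT CDPs (2.81-fold, 95% interval 1.87 to 4.22, limma adjusted p = 0.0257), and Eng was the 1 member called of 10, against 1.18% of all genes. This call was lost when any 1 of the 4 arrays was left out (adjusted p 0.0546 to 0.168), although the difference stayed between 1.23 and 1.75. With GSI the difference in CDPs was 1.79 (3.47-fold, 95% interval 2.31 to 5.21, limma adjusted p = 0.00655), again the 1 member called, against 2.15% of all genes. It was lost without the second GSI-treated IkL/L CDP array (adjusted p = 0.0509).

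In MDPs the Eng difference had the same direction and was not called. With DMSO it was 0.99 (95% interval 0.41 to 1.58, limma adjusted p = 0.518), and with GSI 1.32 (0.74 to 1.91, adjusted p = 0.156). No member was called by limma in MDPs with DMSO, where 0.105% of all genes were called. There 2 of 10 members had an unadjusted p under 0.05, against 4.41% of all genes. In MDPs with GSI no member was called either, with 0.115% of all genes called. There 2 members and 6.81% of all genes were under 0.05 before adjustment. The genotype difference in CDPs exceeded that in MDPs by 0.48 (95% interval -0.10 to 1.07, limma adjusted p = 0.911), so Eng was not shown to respond differently in the 2 starting cells. That comparison called 0 members and 0.562% of all genes. An unadjusted p under 0.05 was held by 1 member and 6.43% of all genes.

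By size alone, the rule the study used, Eng was also the only member over 1.5-fold with DMSO. In CDPs 1 of 10 members passed, against 5.47% of all genes, and in MDPs 1 of 10, against 2.17%. The fold of Eng was 2.81 in CDPs and 1.99 in MDPs.

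Ranked by group mean, Eng was highest in IkL/L CDPs with DMSO (7.91 ± 0.12, SD, n = 2), followed by the other 3 IkL/L groups at 7.66, 7.50 and 7.46 and then the WT groups at 6.67, 6.42, 6.18 and 5.67. Only the gap of 0.79 between the lowest IkL/L and the highest WT group exceeded the 95% half-width of a difference between 2 groups (0.59). Neighbours within a genotype did not differ beyond their spread.

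**Figure D2:**
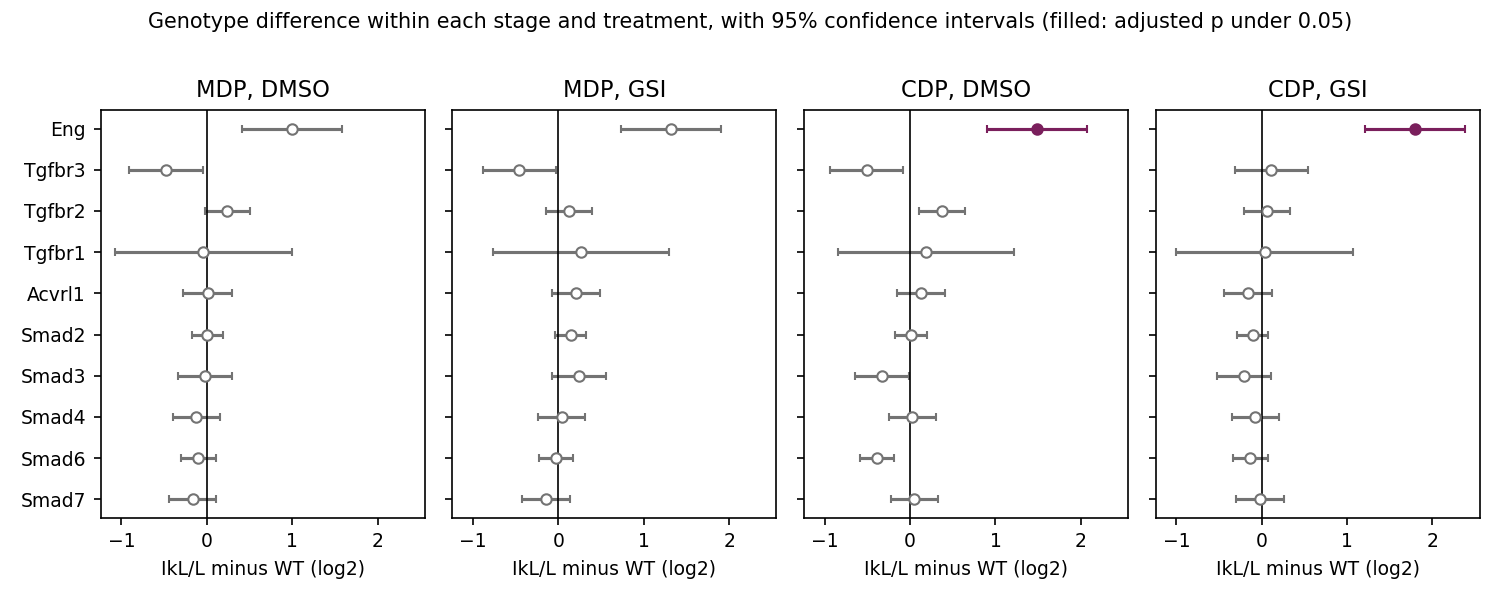
IkL/L minus WT (log2) for each of the 10 genes within each starting cell and treatment, with 95% confidence intervals from the fit of all 16 arrays (2 arrays against 2 in each panel). Filled points passed an adjusted p of 0.05: Eng in CDPs with DMSO (1.49) and with GSI (1.79).

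Tgfbr3, the other co-receptor, did not share this pattern. Its 8 WT arrays ran from 4.79 to 6.53 and its 8 IkL/L arrays from 4.84 to 5.95, so the genotypes overlapped. It was 0.51 lower in IkL/L CDPs and 0.48 lower in IkL/L MDPs with DMSO. With GSI it was 0.11 higher in IkL/L CDPs, where the arrays overlapped, and 0.46 lower in IkL/L MDPs. Averaged over stage and treatment the difference was -0.33 (95% interval -0.55 to -0.12, limma adjusted p = 0.0777). This missed the threshold, and passed it without the second WT MDP array with DMSO (adjusted p = 0.0453). Over the 16 arrays the Pearson correlation of Tgfbr3 with Eng was -0.16, a description of arrays that share the 8 groups.

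The receptors that bind and pass on the signal gave small genotype differences. Tgfbr2, the ligand-binding kinase, ran from 5.65 to 6.22 in WT and 5.72 to 6.63 in IkL/L cells, with a difference of 0.20 averaged over stage and treatment (95% interval 0.06 to 0.33, limma adjusted p = 0.0941). Its highest arrays were the 2 of IkL/L CDPs with DMSO, at 6.36 and 6.63, against 6.22 and 6.02 in WT CDPs, a difference of 0.37 that was not called (adjusted p = 0.263). Acvrl1, the type I receptor known from endothelial cells, lay between 4.89 and 5.58 on all arrays and differed by 0.04 (95% interval -0.10 to 0.19). Tgfbr1, the main type I receptor for TGFβ, differed by 0.11, with the widest interval of the members (-0.41 to 0.63).

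Tgfbr1 is the member whose replicates disagreed most. In WT CDPs with DMSO it gave 9.36 and 8.02, and in WT MDPs with DMSO 9.28 and 8.13. Array 1 was the higher in 7 of the 8 groups. A genotype difference of about 1 log2 unit within a starting cell could thus not be detected for this gene, as its interval in CDPs with DMSO shows (-0.85 to 1.22).

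Among the SMADs, Smad2 and Smad4 differed least. Smad2 was the tightest member, between 8.25 and 8.52 on all 16 arrays, with a genotype difference of 0.01 (95% interval -0.08 to 0.11). Smad4, the partner shared by all branches of the pathway, ran from 7.73 to 8.22 and differed by -0.03 (-0.17 to 0.10). For both, intervals this narrow leave room for averaged differences of at most 0.17 in size.

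Among the DMSO arrays, Smad3 and the inhibitory Smad6 had their lowest values in IkL/L CDPs. Smad3 gave 5.58 and 5.83 in WT CDPs and 5.42 and 5.33 in IkL/L CDPs with DMSO, a difference of -0.33 (95% interval -0.64 to -0.01, limma adjusted p = 0.501). Smad6 gave 5.55 and 5.41 against 5.17 and 5.03, a difference of -0.38 (-0.59 to -0.18, adjusted p = 0.0854). The arrays of the 2 genotypes did not overlap in these 4-array comparisons, as for 6 of the 10 members, and neither gene was called. Such a separation of 2 arrays from 2 cannot give an exact permutation p below 0.333. The share of all genes without overlap was not computed. Averaged over stage and treatment, Smad6 differed by -0.16 (adjusted p = 0.0697), which passed after a second quantile normalization (0.0474), and Smad7, which is itself induced by TGFβ, by -0.07 (95% interval -0.21 to 0.07).

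**Figure D3:**
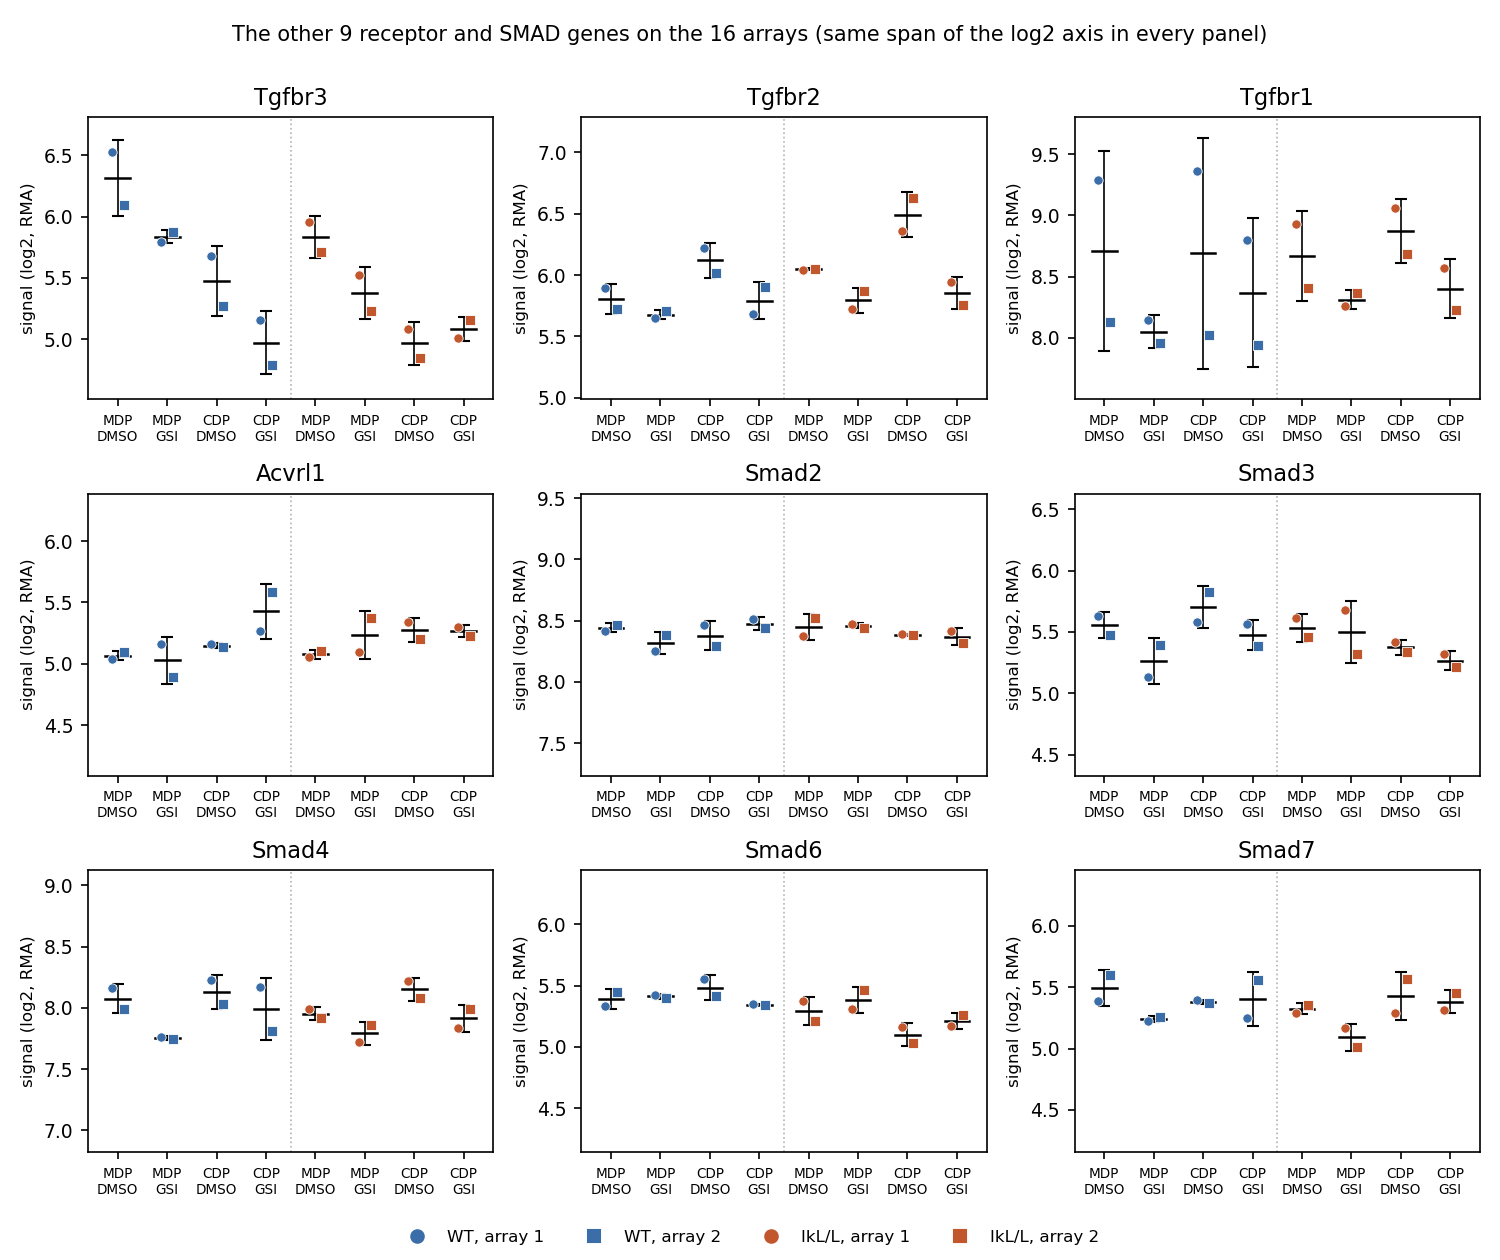
Signal (log2, RMA) of the other 9 genes on each array by group, drawn with the same span of the axis in every panel, with group mean ± SD (n = 2). Tgfbr3 is lower on CDP than on MDP arrays of the same genotype and treatment, Tgfbr1 shows the widest replicate gaps, and Smad2 stays between 8.25 and 8.52.

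Between starting cells, 2 members were called. Tgfbr3 was lower in cells that started as CDPs: with DMSO it gave 6.53 and 6.09 in WT MDPs against 5.68 and 5.27 in WT CDPs. In IkL/L cells with DMSO it gave 5.95 and 5.71 in MDPs against 5.09 and 4.84 in CDPs. In both genotypes the 2 MDP arrays lay above the 2 CDP arrays. With GSI the WT values were 5.80 and 5.87 in MDPs against 5.15 and 4.79 in CDPs. The IkL/L values were 5.53 and 5.23 against 5.01 and 5.16. All 4 pairs of groups were apart, while MDP arrays (5.23 to 6.53) and CDP arrays (4.79 to 5.68) overlapped once genotypes and treatments were pooled.

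Averaged over genotype and treatment, Tgfbr3 fell by 0.71 ± 0.10 (SE) on the log2 scale from MDPs to CDPs, 8 arrays against 8 (95% interval -0.93 to -0.50, limma adjusted p = 0.00142). It remained called when any 1 array was left out. Within single groups the drop was -0.84 in WT cells with DMSO (adjusted p = 0.287) and -0.87 in IkL/L cells with DMSO (adjusted p = 0.0576). No member was called by limma in either. Of all genes 0.0953% were called in WT cells and 1.71% in IkL/L cells. An unadjusted p under 0.05 was held by 2 members and 5.38% of all genes in WT cells. In IkL/L cells it was held by 2 members and 10.7% of all genes.

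Tgfbr2 moved the other way, by less. With DMSO it gave 5.89 and 5.72 in WT MDPs against 6.22 and 6.02 in WT CDPs, and 6.04 and 6.05 in IkL/L MDPs against 6.36 and 6.63 in IkL/L CDPs. With GSI the WT values were 5.65 and 5.70 in MDPs against 5.68 and 5.90 in CDPs, and the IkL/L values 5.72 and 5.87 against 5.94 and 5.76. The groups were apart with DMSO and overlapped with GSI. Averaged over genotype and treatment, Tgfbr2 rose by 0.23 ± 0.06 (SE; 95% interval 0.10 to 0.37, limma adjusted p = 0.0395). The call was lost when any of 11 arrays was left out (adjusted p up to 0.104), so it sits at the threshold. The 2 calls among 10 members compare with 8.74% of all genes (1742) called between starting cells. Before adjustment, 4 members and 19.7% of all genes had a p under 0.05.

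The other 8 members were not called between starting cells. Acvrl1 was 0.18 higher in CDPs (95% interval 0.03 to 0.32, limma adjusted p = 0.138) and Smad4 0.15 higher (0.01 to 0.29, adjusted p = 0.199). Eng differed by -0.13 (-0.43 to 0.16), Smad2 by -0.01 and Smad3 by -0.01. The member genes thus gave their 1 genotype call and their 2 stage calls in different genes.

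**Figure D4:**
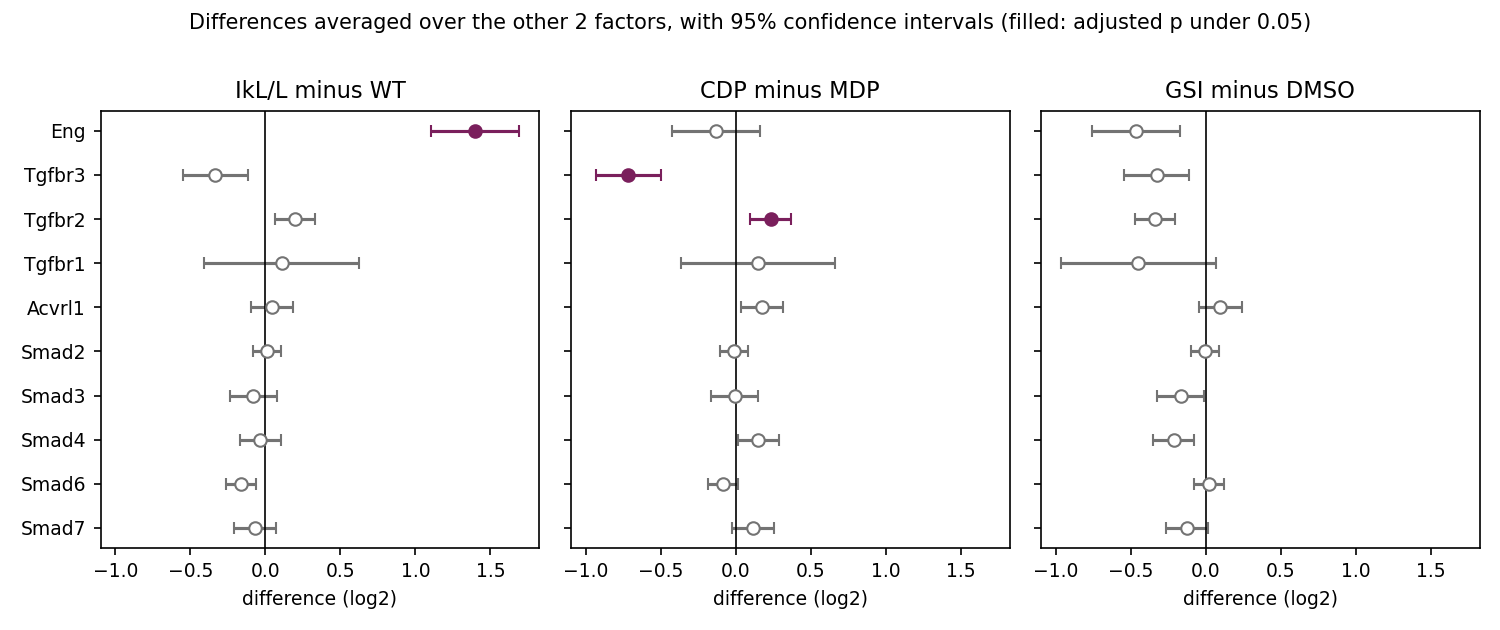
Differences (log2) of the 10 genes between genotypes, starting cells and treatments, each averaged over the other 2 factors, 8 arrays against 8, with 95% confidence intervals. Filled points passed an adjusted p of 0.05: Eng by genotype (1.40), and Tgfbr3 (-0.71) and Tgfbr2 (0.23) by starting cell.

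With GSI no member passed the threshold in the fit of the 8 group means. Averaged over genotype and stage, 0 of 10 were called by limma, against 0.306% of all genes (61). An unadjusted p under 0.05 was held by 5 members and by 11.4% of all genes (2279). Of the 10 members, 8 were lower with GSI, with a median difference of -0.19 against 0.01 over all genes. Eng differed by -0.47 (95% interval -0.76 to -0.17, adjusted p = 0.204), Tgfbr3 by -0.33 (-0.54 to -0.11, adjusted p = 0.224) and Tgfbr2 by -0.34 (-0.47 to -0.20, adjusted p = 0.0555). Tgfbr2 came closest to a call, which the choice of fit decides (adjusted p = 0.0441 with a replicate block).

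Smad4 differed by -0.21 with GSI (95% interval -0.35 to -0.08, adjusted p = 0.216) and Smad3 by -0.17 (-0.33 to -0.01, adjusted p = 0.409). Tgfbr1 differed by -0.45 with an interval from -0.97 to 0.07, and Acvrl1, at 0.10, and Smad6, at 0.02, were the 2 members on the other side of 0.

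Within single populations the largest GSI difference of Eng was in WT CDPs, at -0.76 (95% interval -1.34 to -0.17, limma adjusted p = 0.999), from 6.16 and 6.68 to 5.25 and 6.08. The largest of Tgfbr2 was in IkL/L CDPs, at -0.64 (-0.91 to -0.37, adjusted p = 0.279), from 6.36 and 6.63 to 5.94 and 5.76. Neither was called, and the arrays did not overlap in either, as for 6 of the 10 members in each of these 2 populations. Limma called 0 members in each of the 4 populations, with 2, 3, 1 and 1 members at an unadjusted p under 0.05 in WT MDPs, WT CDPs, IkL/L MDPs and IkL/L CDPs. The shares of all genes called there were 0%, 0.0100%, 0% and 0.00502%, and 1350 and 522 genes had an unadjusted p under 0.05 in the WT and IkL/L MDPs, where limma called none.

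The genotype difference was not shown to depend on GSI. For Eng it was 0.32 larger with GSI than with DMSO (95% interval -0.27 to 0.90, limma adjusted p = 1.00). This comparison called 0 members, 0 with an unadjusted p under 0.05, and 0% of all genes, of which 319 were under 0.05 before adjustment. With GSI, Eng in IkL/L CDPs (7.42 and 7.51) remained above every WT array.

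Of the wider pathway, 79 listed genes were analysed here. Between genotypes, averaged over stage and treatment, 4 of 79 were called higher and 0 lower, 5.06% against 6.0% of all genes, with a median of -0.01 against -0.02. In CDPs with DMSO 1 of 79 was called, 1.27% against 1.18%. None of the 15 ligands, which include Tgfb1 to Tgfb3 and the activin and BMP genes, was called by limma in either. Of them 0 and 1 had an unadjusted p under 0.05, against 18.1% and 9.38% of all genes.

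The 1 pathway gene called in CDPs with DMSO was Itgb8, the integrin subunit that with Itgav releases active TGFβ from its latent complex. It gave 3.98 on both WT CDP arrays and 5.72 and 6.08 on the IkL/L CDP arrays. With GSI it gave 3.96 on both WT arrays and 5.10 and 5.40 on the IkL/L arrays, while all MDP arrays lay between 3.71 and 3.99. Itgb8 was thus high on the 4 IkL/L CDP arrays alone of the 16. The difference was 1.92 with DMSO (limma adjusted p = 1.08e-04), 1.29 with GSI (adjusted p = 8.60e-04) and 1.65 larger in CDPs than in MDPs (95% interval 1.35 to 1.94, adjusted p = 4.15e-04). The other 12 arrays lay below the median gene (4.75) and the values carry no detection call, so whether they exceed background is not known and no fold is given.

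The other 3 pathway genes called by genotype were each higher in IkL/L cells. Nrp1, a co-receptor for semaphorins and VEGF that also binds TGFβ, ran from 6.97 to 8.21 in WT and 7.69 to 8.62 in IkL/L cells, a difference of 0.69 (limma adjusted p = 0.00485). Axl, a receptor tyrosine kinase induced by TGFβ in Langerhans cells, differed by 0.87 (adjusted p = 0.0456), and Smurf1, a ubiquitin ligase that removes receptors and SMADs, by 0.51 (adjusted p = 0.0199). The Smurf1 average covers overlapping MDP arrays and separate CDP arrays. With DMSO, MDPs gave 5.33 and 5.43 in WT and 5.38 and 5.74 in IkL/L cells. CDPs with DMSO gave 5.94 and 5.68 against 6.49 and 6.65. With GSI the values were 4.89 and 5.55 against 5.22 and 5.36 in MDPs, and 5.93 and 5.65 against 6.63 and 6.97 in CDPs. No pathway inhibitor was called for a genotype difference that depends on starting cell. The Axl call was lost in 14 of 22 alternatives and the Smurf1 call in 1. The genes moved in different roles: 1 activator of ligand, 1 receptor, 1 inhibitor and 1 target.

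Axl was also the 1 pathway gene called with GSI (1.27% of 79 against 0.306% of all genes). Its 8 DMSO arrays ran from 6.60 to 8.43 and its 8 GSI arrays from 5.12 to 7.02. It fell by 1.42 on the log2 scale (95% interval -1.92 to -0.93, limma adjusted p = 0.0363), with lower group means in all 4 populations, and the call was lost in 12 of 22 alternatives.

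Between starting cells 11 of 79 pathway genes were called, 10 higher and 1 lower in CDPs, 13.9% against 8.74% of all genes. The largest were the targets Id3 (1.66, limma adjusted p = 8.87e-04) and Id2 (1.30, adjusted p = 0.00192), inhibitors of helix-loop-helix factors. Their CDP arrays did not overlap their MDP arrays, at 7.89 to 9.21 against 6.32 to 7.47 for Id3 and 9.34 to 9.96 against 7.20 to 9.09 for Id2. Itgb8 followed at 0.94, an average over unlike genotypes: with DMSO it was 0.20 in WT cells, not called, and 2.05 in IkL/L cells. Smad5, a SMAD of the BMP branch, was the 1 gene lower in CDPs (-0.19, adjusted p = 0.0245).

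The inhibitors held 4 of the 11 calls out of 14 measured: Smurf1 (0.88), Pmepa1 (0.81), Skil (0.50) and Nedd4l (0.37), all higher in CDPs. Itgav (0.68), Junb (0.51) and Smad1 (0.32) made up the rest. The Smurf1 and Pmepa1 averages join a smaller rise in WT and a larger one in IkL/L cells, a difference that was not called. With DMSO, Pmepa1 gave 5.57 and 5.13 in WT MDPs against 5.52 and 5.70 in WT CDPs, which overlapped. The IkL/L values were 5.56 and 5.54 against 6.10 and 6.54. Smurf1 with DMSO went from 5.33 and 5.43 to 5.94 and 5.68 in WT. In IkL/L cells it went from 5.38 and 5.74 to 6.49 and 6.65. Of 22 alternatives, the Skil call was lost in 15, Itgav in 13, Smad5 in 8 and Smad1 in 3. The count of calls fell to 7 without the second IkL/L MDP array with GSI or the second IkL/L CDP array with DMSO. No other receptor of the 16 was called by limma between starting cells. Of the 16, 1 had an unadjusted p under 0.05, against 19.7% of all genes.

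**Figure D5:**
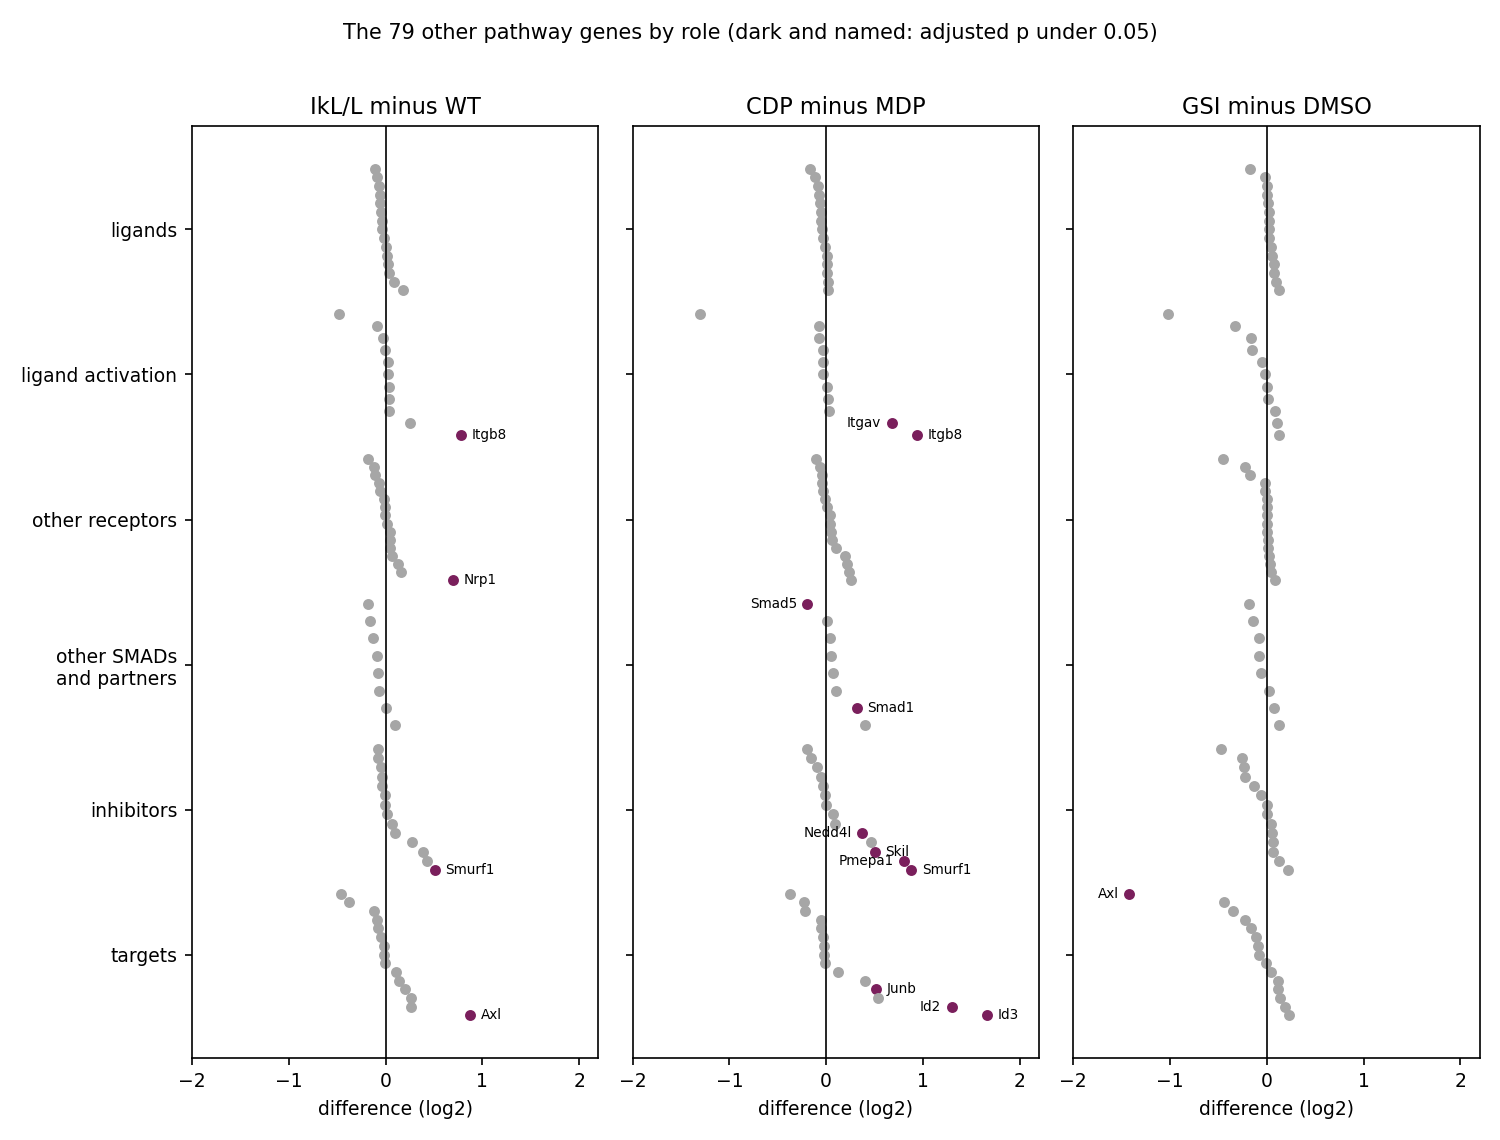
Differences (log2) of the 79 other pathway genes by role, 1 point per gene, averaged over the other 2 factors, 8 arrays against 8. Dark, named points passed an adjusted p of 0.05: 4 genes by genotype, 11 by starting cell and Axl by treatment, while ligands cluster at 0 in all 3 panels.

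Markers of several cell types moved with genotype beside Eng, and fewer cells of a type cannot be told apart from less RNA per cell in such bulk samples. Of 8 neutrophil genes, 6 were called higher in IkL/L cells averaged over stage and treatment, where 6.0% of all genes were called. The mean over the list ran from 8.09 to 10.09 in WT and 9.91 to 11.71 in IkL/L arrays. Elane (-0.54) and Mpo (-0.93), of the same list, were not called. Of 8 mature DC genes all 8 were higher, with list means of 5.08 to 7.32 and 6.21 to 9.95. Of 8 endothelial genes 2 were higher, Cdh5 (4.18 to 4.45 against 5.47 to 6.83) and Kdr (3.37 to 3.68 against 3.40 to 4.75). Kdr overlapped between genotypes and reached about the median gene (4.75) at most. The other 6 were not called. Of these, Tek, Emcn and Esam stayed between 3.40 and 4.17 on all arrays, below the median gene, and Tie1 between 4.14 and 4.76. Egfl7 (5.08 to 5.86) and Pecam1 (5.48 to 7.26) were brighter, and differed by -0.05 and -0.68 (limma adjusted p = 0.758 and 0.0857).

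Smaller parts of the remaining lists were called higher in IkL/L cells: 2 of 7 macrophage and monocyte genes (Cd14 and Mrc1), 2 of 6 basophil and mast cell genes (Mcpt8 and Hdc), 1 of 5 erythroid genes (Tfrc) and 1 of 4 megakaryocyte genes (Ppbp). None of the 6 progenitor, 6 pDC, 6 stromal, 4 B cell and 4 T and NK cell genes was called by genotype. Klf1, Gp9, Cd79a and Cd3e, markers of the erythroid, megakaryocyte, B and T lineages, lay at or below 5.02 on every array. Other members of these lists reached higher values. Tfrc ran from 8.41 to 9.87 (r = 0.54 with Eng) and Ppbp from 3.30 to 6.15 (r = 0.60). The platelet gene Pf4 ran from 4.29 to 7.28 in WT and 4.67 to 7.38 in IkL/L cells (difference 1.39, limma adjusted p = 0.0857, r = 0.70 with Eng). The B cell gene Vpreb1 lay at 5.14 to 6.59. The part of any of these cells in the Eng values was not tested.

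The genes whose levels followed Eng most closely over the 16 arrays were Mansc1 (Pearson r = 0.95), Tefm (0.91), Pglyrp1 (0.90), Camp (0.89) and Tsc22d3 (0.89). Pglyrp1 and Camp encode granule proteins of neutrophils, and Tsc22d3 encodes a glucocorticoid-induced protein. The most opposite were Ctsll3 (-0.87) and Galnt6 (-0.86). Of the marker lists, Cdh5 (0.89), Camp (0.89) and Ltf (0.85) were the most like Eng, and of the other members Smad6 (-0.61) and Tgfbr2 (0.50). All of these describe the same 16 arrays, which fall into 8 groups.

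Beside the differences between starting cells, 8 of 8 mature DC and 6 of 6 pDC genes were called higher in cells that started as CDPs. Over all genes 8.74% were called there. The pDC list mean ran from 5.17 to 5.78 on MDP arrays and 6.19 to 7.63 on CDP arrays. Of the neutrophil list, Elane (-4.46) and Mpo (-4.17), granule genes of early myeloid precursors, were lower in CDPs. The progenitor list split: Flt3 was higher by 1.91 (limma adjusted p = 5.78e-04), while Irf8 was lower (-0.55, adjusted p = 0.0198). Csf1r (0.32), Cx3cr1 (0.17), Kit (-0.83) and Cd34 (-0.51) were not called. The part of any such cells in the values of Tgfbr3 and Tgfbr2 was not tested.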

How the data were processed

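Total RNA (0.69 to 20 ng per target preparation, per the labels, amplified before labelling) was hybridised to 16 Affymetrix Mouse Gene ST 1.0 arrays, 2 per group. The deposited log2 values were made by the authors with RMA in Affymetrix Expression Console 1.4.1 (submitters' processing notes), which corrects background, quantile-normalises and summarises probes. Their range is 2.55 to 13.46, without centring of genes. RMA compresses differences of dim probe sets and assumes like distributions on all arrays. The number of arrays limits the precision. The version of the probe annotation was not given in the sources used here.

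Of 28188 probe sets, 21789 carry 1 symbol, 1621 several and 4778 none. Where a symbol had more than 1 probe set, the brightest by its 16-array mean stood for the gene, which left 19938 genes, with no filter. Identifiers of 21698 probe sets matched the mouse gene table, which updated 0 symbols.

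Groups came from the sample labels. The 8 group means were fitted to all 16 arrays in limma 3.58.1 (R 4.3.3, lmFit and eBayes, 8 residual and 2.35 prior degrees of freedom), with two-sided moderated tests, Benjamini-Hochberg adjustment over all genes and a threshold of 0.05. The study gives no test for its arrays, only a fold rule of 1.5. A comparison of 2 arrays with 2 cannot give an exact permutation p below 0.333, so exact permutation was used only for Eng over all groups. The fit was tested on simulated data. Alternatives were leaving out each array, a replicate block, a signal filter at the median of all genes, a second quantile normalization, averaged probe sets, a trended robust prior, array weights, the 4 arrays alone, a 2-fold rule, and DMSO or GSI arrays alone for single results.

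The members, pathway list and marker lists were chosen with earlier results of these data known. Named genes were the 10 members, Ikzf1, the pathway genes called in an averaged comparison or in CDPs with DMSO, the 5 genes most like Eng and the 2 most opposite, and the markers most correlated with Eng. The other called genes of the comparison between starting cells, and further markers, were named after their values were seen.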

Additional observations from a re-analysis of the deposited data

Results flagged for a closer look

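Itgb8 responded to genotype differently in the 2 starting cells, by a test of that difference: IkL/L minus WT was 1.65 larger in CDPs than in MDPs on the log2 scale (limma adjusted p = 4.15e-04). Smad2 with GSI was lower in IkL/L than in WT CDPs (-0.11) and higher in IkL/L than in WT MDPs (0.14). The 2 arrays and 2 did not overlap in either, as for 4 and 6 of the 10 members. Neither Smad2 difference was called (limma adjusted p = 0.851 and 0.831), and the difference between them of -0.25 was not tested. Smad6 with GSI was lower than with DMSO in WT CDPs (-0.14) and higher in IkL/L CDPs (0.11). The arrays again did not overlap, but in IkL/L CDPs they nearly touched (lowest with GSI 5.1672, highest with DMSO 5.1650). Neither was called (limma adjusted p = 0.999 and 1.00), and the difference between them of -0.25 was not tested.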

How the results depend on the processing

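Averaged over stage and treatment, the Eng genotype difference stayed between 1.30 and 1.5 and called under all 22 alternatives, with adjusted p from 2.28e-05 to 0.00103. Among the members no call reversed. With the 4 arrays compared alone, 0 members were called in CDPs with DMSO and 0 in CDPs with GSI (Eng at 1.49 and 1.79, adjusted p = 0.218 and 0.204), and 0 pathway genes in CDPs with DMSO. That fit holds fewer arrays, and why its counts were lower was not tested.

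When each array was left out in turn, with the lone array of its group assumed to vary like the other groups, 0 to 1 members were called by genotype in CDPs with DMSO and 0 to 1 with GSI, 1 to 2 averaged over groups (Eng, and Tgfbr3 without the second WT MDP array with DMSO), 0 to 1 between starting cells in IkL/L cells with DMSO (Tgfbr3) and 1 to 2 between starting cells averaged over groups (Tgfbr3, with or without Tgfbr2). Members over 1.5-fold numbered 1 to 2 in CDPs (2 without either WT array or the first IkL/L array) and 1 to 3 in MDPs (2 without the first IkL/L array, 3 without the second WT array). Pathway genes called numbered 2 to 6 by genotype (2 without the second IkL/L MDP array with GSI), 0 to 2 with GSI and 7 to 12 between starting cells (7 without that array or the second IkL/L CDP array with DMSO).

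Whether equal replicate numbers mark paired samples was not settled: over 28 pairs of groups the deviations of same-numbered arrays correlated at -0.25 to 0.66 (median 0.14), with 17 over 0.1 and 5 under -0.1. Since not every pair was over 0.1, they were not treated as pairs. A replicate block gave 2 members by genotype averaged over groups (Eng, and Tgfbr3 at adjusted p = 0.0186), 1 with GSI (Tgfbr2, 0.0441) and 1 between starting cells in IkL/L cells with DMSO (Tgfbr3, 0.0127), and changed the count of members in no other comparison. A second quantile normalization gave 2 members by genotype (Eng and Smad6, 0.0474). The signal filter gave 1 member between starting cells in IkL/L cells with DMSO (Tgfbr3), as did the trended robust prior and array weights. The filter left 0 pathway genes in CDPs with DMSO because Itgb8 lies under it. The trended robust prior and array weights each left 1 member between starting cells averaged over groups (Tgfbr3), Tgfbr2 being at 0.0962 and 0.0519. Over 2-fold instead of 1.5-fold, 0 members passed in MDPs with DMSO.

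The exact permutation for Eng gave 1.24 with DMSO arrays alone and 1.56 with GSI arrays alone, each at p = 0.0556, the smallest that 36 arrangements allow. Apart from the settings named here, the cause of a lost call was not tested.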
